A study of Caenorhabditis elegans with 2 samples.

Results

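The nuclear hormone receptor genes of Caenorhabditis elegans were examined for binding by UNC-120, an SRF-type regulator of muscle genes, in ChIP-seq of whole embryos. UNC-120 carried GFP and FLAG at its C terminus in strain OP659, whose genotype was unc-119(tm4063) III with the transgene wgIs659. The embryos, mixed in stage and sex, were taken 3 hours after synchronization by bleaching, and tagged chromatin was recovered with an antibody against GFP. The 2 libraries were biological replicates of 1 group, so no comparison between conditions was possible, and whole embryos hold muscle and all other tissues. The members were the protein-coding genes of the WBcel235 annotation (the sequence of ce11) whose symbol starts with nhr-, without nhr-40, and there were 268 of them among 19973 nuclear protein-coding genes. Chromosome V held 167 of the 268, IV held 33, I held 23, X held 22, II held 15 and III held 8. Binding was assigned to a gene if the window from 1000 bp before to 500 bp after any annotated 5' end contained a summit. Peaks were the 2946 nuclear regions of the pooled list that had passed the authors' threshold on the irreproducible discovery rate (IDR). The score of a peak is the strength given by the authors' peak caller, on a scale not given in the sources used here, and rank 1 is the highest score in a list.

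Nuclear receptors are transcription factors that bind DNA through a pair of zinc fingers, and many of them change activity when a small lipid-like ligand binds. A small number of nematode receptors have clear orthologues in insects and vertebrates and act in moulting, development and sterol or xenobiotic responses. Most of the others arose within nematodes from an ancestor related to the vertebrate receptor HNF4, and many of those lie in clusters on chromosome V. For the comparison, 11 members formed the conserved group: nhr-6, nhr-8, nhr-23, nhr-25, nhr-41, nhr-48, nhr-67, nhr-85, nhr-91, nhr-111 and nhr-239. The remaining members were divided into 166 expanded members on V and 91 expanded members on the other chromosomes.

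The summit windows of 4 bound members and 1 member with a distal summit show the DNA under strong peaks on 3 chromosomes and in all 3 groups. Each window holds 201 bases of ce11 centred on the summit and is written 5' to 3' on the strand of the gene. Capitals mark every GAGAGA or its complement TCTCTC, except in the window of nhr-255, where they mark a tRNA gene. The windows are chrX:17513516-17513716 (plus strand) for nhr-1, chrX:15707413-15707613 (plus strand) for nhr-48, chrV:5505096-5505296 (plus strand) for nhr-47, chrX:15741979-15742179 (plus strand) for nhr-255 and chrIII:4237793-4237993 (minus strand) for nhr-20.
nhr-1: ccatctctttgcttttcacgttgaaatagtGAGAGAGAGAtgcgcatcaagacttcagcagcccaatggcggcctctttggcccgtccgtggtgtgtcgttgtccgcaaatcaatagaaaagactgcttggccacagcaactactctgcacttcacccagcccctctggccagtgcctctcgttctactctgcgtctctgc
nhr-48: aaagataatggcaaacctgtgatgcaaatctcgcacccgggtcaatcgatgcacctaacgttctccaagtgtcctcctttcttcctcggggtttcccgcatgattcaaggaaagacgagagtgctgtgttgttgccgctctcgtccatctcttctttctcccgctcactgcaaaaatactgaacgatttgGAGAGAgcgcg
nhr-47: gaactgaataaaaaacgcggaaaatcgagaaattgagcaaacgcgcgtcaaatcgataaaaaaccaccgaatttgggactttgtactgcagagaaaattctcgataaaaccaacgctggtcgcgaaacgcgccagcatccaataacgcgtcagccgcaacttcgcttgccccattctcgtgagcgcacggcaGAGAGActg
nhr-255: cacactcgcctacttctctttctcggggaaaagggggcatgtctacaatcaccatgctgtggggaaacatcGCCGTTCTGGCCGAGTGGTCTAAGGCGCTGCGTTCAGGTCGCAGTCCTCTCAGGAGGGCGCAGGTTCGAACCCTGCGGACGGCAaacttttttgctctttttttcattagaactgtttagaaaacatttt
nhr-20: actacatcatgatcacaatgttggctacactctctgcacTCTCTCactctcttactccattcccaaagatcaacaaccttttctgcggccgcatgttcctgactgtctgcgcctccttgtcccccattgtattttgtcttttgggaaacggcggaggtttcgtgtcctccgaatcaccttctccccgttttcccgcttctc
The window of nhr-1 has 1 run of the repeat on the left of its summit, those of nhr-48 and nhr-47 have 1 copy near their right end, and that of nhr-20 has 1 copy left of its summit.

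UNC-120 was bound near the 5' ends of 16 receptor genes, which is 5.97% of the 268 (Wilson 95% interval 3.71 to 9.48). The share over all protein-coding genes was 9.26%, or 1849 of 19973, and lies inside that interval. The intervals treat genes as independent draws, which neighbouring family members are not, and they hold no replicate error. The conserved group had 2 bound of 11 (18.2%, 5.14 to 47.7), namely nhr-48 and nhr-41. Of the expanded members on V, 5 of 166 were bound (3.01%, 1.29 to 6.86), beside 243 of the 4827 other genes of V (5.03%, 4.45 to 5.69). Of the expanded members elsewhere, 9 of 91 were bound (9.89%, 5.29 to 17.7), beside 10.7% of the other genes outside V. The intervals of all 3 groups overlapped one another. Overlap of separate intervals does not compare groups. The difference between conserved and expanded members was not tested, and the conserved group holds only 11 genes.

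**Figure D1:**
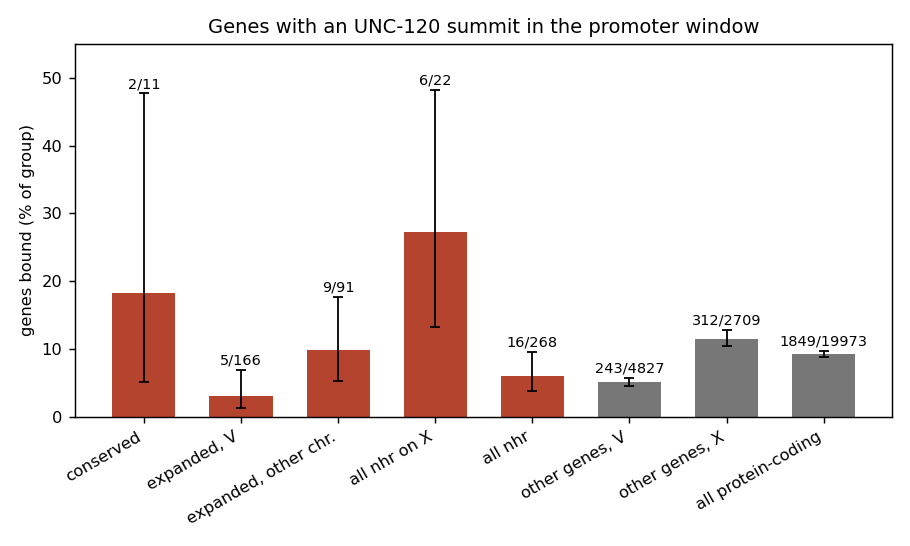
Bars give the share of genes bound, in percent, for receptor groups (red) and for other genes of V, other genes of X and all protein-coding genes (grey), with Wilson 95% intervals and counts above. The interval of the 11 conserved members, 5.14 to 47.7, overlaps those of both expanded groups, while the share of expanded members on V, 3.01%, lies below its lower limit.

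Among receptor genes on X the share bound was above that of the other genes of X, a split chosen after the counts by chromosome had been seen and given without a test. On X, 6 of 22 members were bound (27.3%, 13.2 to 48.2), against 312 of 2709 other genes (11.5%, 10.4 to 12.8). Outside X, 10 of 246 members were bound (4.07%, 2.22 to 7.32), against 8.95% of the other genes. The 6 on X were nhr-1, nhr-3, nhr-32, nhr-35, nhr-48 and nhr-255. Without summits within 200 bp of tRNA and other small RNA genes, 5 of 22 were bound (22.7%), against 10.7% of the other genes of X. Of the 22, 11 had more than 1 annotated 5' end, against 25.4% of the other genes of X. Their median gap to the next gene upstream was 4420 bp, against 2111 bp, and their median length was 4402 bp, against 2532 bp. The part of these features in the share on X was not tested. If members of each chromosome had been bound at the share of its other genes, 19.0 would have been bound in place of the 16 observed. Outside X the same sum gave 16.5 against 10, and on V it gave 8.41 against 5. By chromosome, 2 of 23 members were bound on I, beside 13.0% of its other genes, and 1 of 15 on II, beside 8.44%. On III 0 of 8 were bound (Wilson upper limit 32.4%), beside 13.2%, and on IV 2 of 33, beside 8.34%. The gene nhr-40, which the choice of members left out, also lies on X, and it had a summit 454 bp upstream with a score of 1521, rank 4 of the pooled list, rank 4 in replicate 1 and rank 8 in replicate 2.

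Both bound receptors of the conserved group had their summits in both replicates, which the choice of IDR peaks favours. The gene nhr-48, which belongs with daf-12 and nhr-8 to the receptors related to the vertebrate vitamin D and pregnane X receptors, had a summit 700 bp upstream with a score of 372. That summit ranked 959 in the pooled list, 962 in replicate 1 and 956 in replicate 2. A weaker summit of nhr-48 lay 499 bp upstream, scored 221 and ranked 6270 and 2771 in the replicates. The gene nhr-41, the orthologue of Drosophila DHR78, had a summit 184 bp downstream of a 5' end, in an intron, with a score of 308 and ranks 1150 and 1667 in replicates 1 and 2. The summit of nhr-41 lay inside a tRNA gene (WBGene00023202, chrIV:1388216-1388287), and without summits near tRNA and other small RNA genes the conserved group had 1 bound member. Whether the tRNA gene has a part in the peak of nhr-41 was not tested.

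The other conserved receptors lacked a peak past the IDR threshold in their windows, though 7 of the 9 had a weaker listed region. The gene nhr-25, an NR5A-type receptor of the epidermis and moulting, had the strongest of these, with a score of 170 against 185 for the weakest nuclear IDR peak. Its region lay 52 bp from a 5' end and ranked 3268 in the pooled list. The best region in its windows ranked 4323 in replicate 1 and 3613 in replicate 2. The gene nhr-6, an NR4A-type receptor of the spermatheca, had its best region at rank 10745, with ranks 16386 and 13855 in the replicates. The gene nhr-239 had its best region at rank 12222 in the pooled list and 5583 in replicate 1, and none in replicate 2. These ranks lie below the IDR list, where regions include background. The best region of nhr-23, a ROR-type receptor of moulting, ranked 14003. That of nhr-91, a GCNF-type receptor, ranked 19973. That of nhr-67, a tailless-type receptor, ranked 21009, and that of nhr-85, a Rev-erb-type receptor of developmental timing, ranked 29572. Replicate 1 had no region in the windows of nhr-23, nhr-67 and nhr-85. No region was listed in the windows of nhr-8, a receptor of xenobiotic and sterol responses, or of nhr-111.

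The strongest promoter peak among the 268 members, which leave out nhr-40, belonged to nhr-1 on X, an expanded member. Its first summit lay 447 bp upstream with a score of 756 and ranked 139 in the pooled list, 90 in replicate 1 and 193 in replicate 2. A second summit 247 bp upstream scored 287 and ranked 1040 and 2690. The peak of nhr-255 on X, 531 bp upstream, scored 438 and ranked 767 and 589 in replicates 1 and 2. Its summit lay inside the tRNA gene WBGene00014626 (chrX:15742050-15742133), the stretch in capitals in the window printed earlier, and the part of that gene in the peak was not tested. The peak of nhr-32 on X, 342 bp upstream, scored 417 and ranked 473 and 988. The gene nhr-3 on X had a summit 926 bp upstream that scored 339 and ranked 947 and 1437. A stronger summit of nhr-3 lay in an intron, 1943 bp downstream of the 5' end, with a score of 511 and ranks 314 and 634. The peak of nhr-35 on X lay 404 bp upstream, scored 269 and ranked 2088 and 1460. All 6 bound members of X had their strongest promoter summit among the top 2946 regions of both replicates, which the choice of IDR peaks favours.

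Outside X and V, 4 expanded members were bound, and 3 of them belong to a list of receptors of fat and nutrient metabolism. That list was drawn up with earlier results of these data known. Its members nhr-10, nhr-62, nhr-76 and nhr-80 also lie outside X and V and had no promoter summit. For all members on I the share bound was 8.7%, against 13.0% of the other genes. It was 6.67% against 8.44% on II, 0% against 13.2% on III and 6.06% against 8.34% on IV. The gene nhr-49, an HNF4-like regulator of fat metabolism and the fasting response, had a summit 281 bp upstream that scored 420 and ranked 803 and 618 in replicates 1 and 2. The gene nhr-66, a partner of NHR-49 in lipid genes, had a summit 84 bp upstream of one of its 7 annotated 5' ends, in an exon of the gene, with a score of 354 and ranks 1339 and 771. The gene nhr-64, another HNF4-like receptor, had a summit 57 bp upstream of an internal 5' end, in an exon, with a score of 326 and ranks 1811 and 1063. The gene nhr-119 had the weakest peak of the 16, with a score of 193, 355 bp upstream, and ranks 3166 and 3037. It was outside the top 2946 of both replicates. A further summit of nhr-119 lay 3853 bp upstream and scored 292.

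The 5 bound expanded members on V had a median score of 230, against 354 for the expanded members elsewhere, 340 for the conserved group and 301 for all bound genes. The highest score among them was that of nhr-47, whose summit 57 bp upstream scored 356, ranked 1266 and 887 in replicates 1 and 2 and also lay in the window of dnj-19. The summit of nhr-142, 512 bp upstream, scored 255 and ranked 2057 and 1804, and it was nearer to a 5' end of F44E7.9 than to that of nhr-142. The gene nhr-58 had a summit 15 bp inside the transcript that scored 230 and ranked 2011 and 2811. The summit of nhr-190 lay 64 bp upstream, scored 221 and ranked 2238 and 2583. The gene nhr-86, known for responses to pathogens and metabolites, had a summit 74 bp upstream that scored 199 and ranked 2766 and 2576. With the strongest 1473 peaks alone, nhr-47 was the 1 bound expanded member on V.

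**Figure D2:**
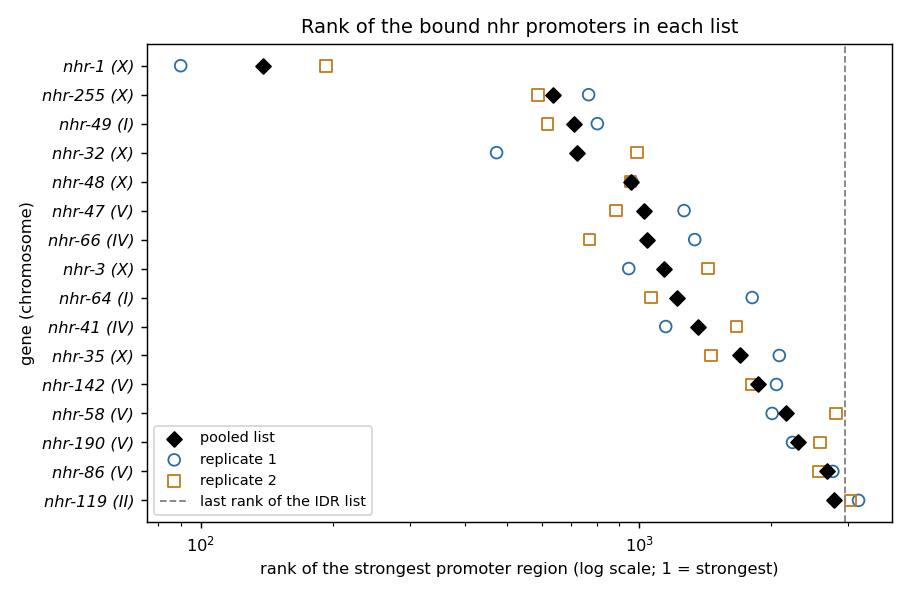
Rank of the strongest promoter summit of each of the 16 bound receptor genes in the pooled list (diamonds), replicate 1 (circles) and replicate 2 (squares), on a log axis with rank 1 the strongest. The summit of nhr-1, with ranks 90 and 193, stands farthest to the left, and nhr-119 lies past the dashed line at rank 2946 in both replicates.

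The plot of replicate ranks gives the place of these peaks in each replicate. The IDR threshold had already selected regions by their agreement between these replicates, so high ranks in both were largely fixed in advance. Replicate ranks of IDR peaks are those of the closest summit in each replicate's list, at most 200 bp away. For members with only a weaker region, they are those of the strongest region of that replicate in the promoter windows, which can be another site. Of the 18 promoter summits, 16 were among the top 2946 regions of both replicates. The same share for all IDR summits is not given here. A test of the replicates on their own, with a region among the top 2946 of each in the window, gave 15 of 268 receptor genes (5.60%) against 7.45% of all genes. Of the 16 bound members, 10 were in the strongest 1473 peaks and 6 were not.

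The positions of the promoter summits were limited in advance by the window, which reaches 1000 bp upstream and 500 bp downstream of a 5' end. Of the 18, 16 lay upstream of the nearest 5' end of the member and 2 downstream. Within 100 bp lay 6, and the median distance was 311 bp. The same values for all bound genes are not given here, so these describe the members only. For 17 of the 18 the nearest annotated 5' end was that of the receptor gene itself. The member nearest inside the upstream limit was nhr-3 at 926 bp, and the nearest outside it was nhr-8 at 1077 bp. Downstream, nhr-41 at 184 bp was the nearest inside and nhr-19 at 1625 bp the nearest outside. On score, nhr-119 with 193 was the nearest inside, and nhr-25 with 170 and nhr-34 with 156 were the nearest outside.

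**Figure D3:**
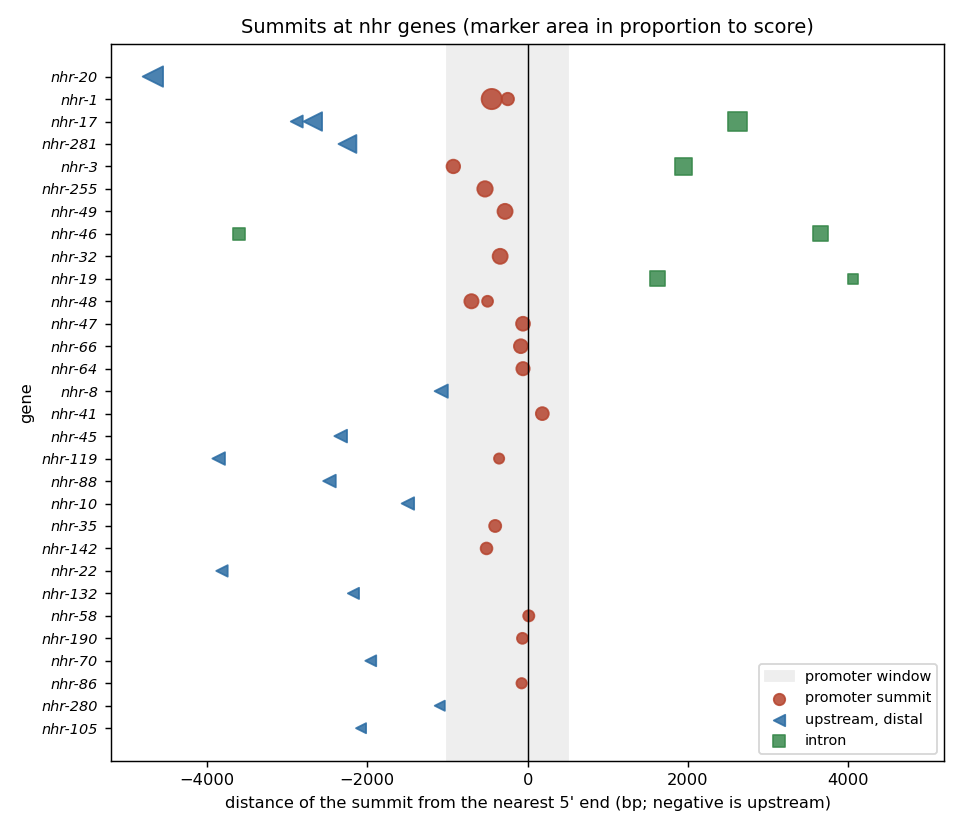
Distance of each summit from the nearest 5' end of its receptor gene, in bp with negative values upstream, for promoter summits (circles), distal upstream summits (triangles) and intronic summits (squares), with marker area in proportion to score. The shaded band is the promoter window, and the large triangle at nhr-20 lies 4674 bp upstream.

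Summits outside the promoter window but within 5 kb of a 5' end, upstream or in an intron, were found at 16 members (5.97%). The Wilson interval, 3.71 to 9.48, lies below the 12.2% of all genes. Of the 16, 14 had no promoter summit. On V, 2 of 166 expanded members had such a summit (1.20%, 0.331 to 4.29), and that interval lies below the 7.54% of the other genes of V. Both intervals treat genes as independent draws, and no test was run. Among expanded members elsewhere it was 13 of 91 (14.3%), beside 13.8% of the other genes outside V. In the conserved group it was nhr-8 alone. Of the 20 distal summits, 14 lay upstream and 6 in introns. For 12 of the 20 the nearest 5' end was that of the receptor gene, and 5 lay in the promoter window of another gene. These assignments are by distance and do not say which gene a site serves.

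The highest distal score was at nhr-20 on III, where a summit 4674 bp upstream scored 766 and ranked 178 and 118 in replicates 1 and 2. That exceeds the promoter score of 756 at nhr-1 in the same list. The gene nhr-17 on X had 3 distal summits. The one in an intron, 2613 bp downstream, scored 660 and ranked 279 and 147, and it lay inside the tRNA gene WBGene00009555. The upstream ones, at 2679 and 2879 bp, scored 631 and 265. At nhr-281 on X a summit 2247 bp upstream scored 590 and ranked 445 and 229, and it lay inside a tRNA gene and in the promoter window of F28H6.7. The gene nhr-46 had 2 intronic summits, of which the stronger scored 419 and ranked 797 and 805. The gene nhr-19 also had 2 intronic summits, and the stronger, 1625 bp downstream, scored 415 and ranked 1245 and 479. The summit of nhr-8, 1077 bp upstream, scored 322 and ranked 1171 and 1496, and it lay in the promoter windows of emc-6, mrpl-1 and mrps-24. On V, nhr-132 and nhr-58 shared 1 summit, distal to nhr-132 and in the promoter window of nhr-58.

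Down the whole pooled list, with the members that had an IDR peak included, regions were listed for most conserved members and for a minority of expanded members. The pooled ranked list of 29995 nuclear regions, which includes background, had a region in the windows of 83 of 268 members (31.0%), against 40.3% of all genes. It had one for 9 of 11 conserved members (81.8%), 40 of 166 expanded members on V (24.1%) and 34 of 91 expanded members elsewhere (37.4%). The share for the other genes of V was 27.5%. Among the strongest 5892 regions, 27 members had one (10.1%), against 15.8% of all protein-coding genes. Of the 27, 3 were conserved, 13 were expanded outside V and 11 were expanded on V, which is 6.63% of the expanded members on V against 9.88% of the other genes of V. The conserved members have more annotated 5' ends, so their windows cover more DNA, and the part of this in the share was not tested.

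**Figure D4:**
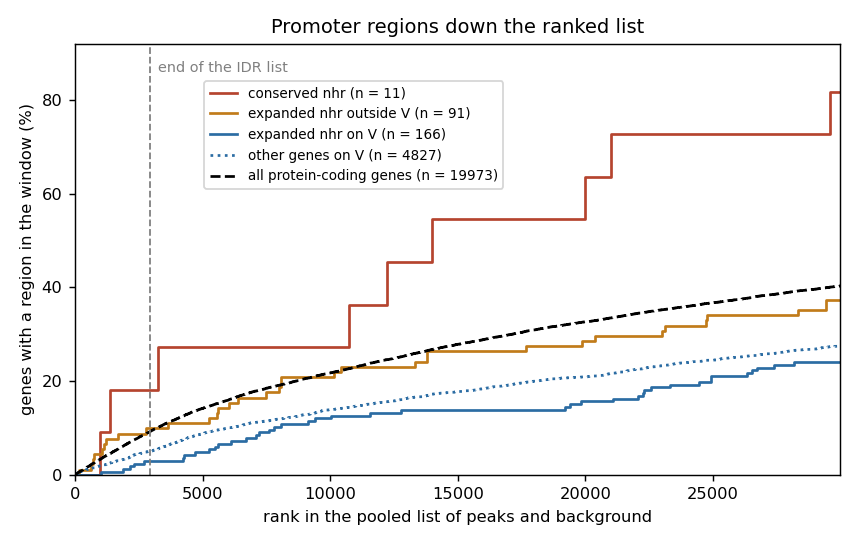
Cumulative share of genes, in percent, with a region in the promoter window as the rank limit in the pooled list is raised, for each receptor group, the other genes of V (dotted) and all protein-coding genes (dashed). At the end of the list the curve of conserved members reaches 81.8%, that of expanded members on V reaches 24.1% and that of all genes reaches 40.3%.

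The bound members of V lay in the arms of the chromosome, taken as the outer 30% at each end. In the arms 5 of 124 expanded members were bound (4.03%), against 3.69% of the other arm genes. In the centre 0 of 42 were bound (Wilson upper limit 8.38%), against 6.80% of the other centre genes. A region of the full pooled list was present for 4.76% of the centre members and 24.6% of the other centre genes. The 2 centre members with a listed region were nhr-135 and nhr-286, named after their values were seen, with pooled ranks 10010 and 26317.

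Binding was counted separately for members with and without another member within 50 kb. Of 189 with such a neighbour 5 were bound (2.65%, 1.14 to 6.04), and of 79 without one 11 were bound (13.9%, 7.96 to 23.2), beside 9.26% of all protein-coding genes. Among expanded members on V the counts were 2 of 137 (1.46%, 0.401 to 5.17) and 3 of 29 (10.3%, 3.58 to 26.4). Among expanded members elsewhere they were 2 of 51 (3.92%, 1.08 to 13.2) and 7 of 40 (17.5%, 8.75 to 31.9). A neighbour within 50 kb was present for 82.5% of expanded members on V, 56.0% of those elsewhere and 9.09% of conserved members. The gap to the next gene upstream moved with this split: its median was 1173 bp with a neighbour and 3526 bp without one. More than 1 annotated 5' end was present for 30.7% of members with a neighbour and 45.6% of those without, and median gene length was 2147 and 3535 bp. The part of these features in the difference was not tested.

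Other features of the genes also moved with binding. The median upstream gap was 3457 bp for bound members and 1505 bp for the rest, and it was 4816 bp for conserved members, 1062 bp for expanded members on V and 2807 bp for expanded members elsewhere. Median gene length was 4943 bp for bound members and 2257 bp for the rest. More than 1 annotated 5' end was present for 62.5% of bound and 33.3% of other members, and for 72.7% of conserved members. A gene with more 5' ends has more window in which a summit can fall. Of the members with more than 1 end 10 of 94 were bound (10.6%), and of those with 1 end 6 of 174 were bound (3.45%). Other genes showed the same order, 15.3% and 7.16%. The part of each feature was not tested.

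Repeated sequence at duplicated genes can keep reads from being placed, so the share of 32-base words in each promoter window that occur once in the genome was counted, and its part in the shares was not tested. For 35 members that share was under 90%, and 0 of the 35 were bound (Wilson upper limit 9.89%), against 4.37% of other genes with such windows. With the other 233 alone, 16 were bound (6.87%), against 10.2% of other genes at or above 90%. On V the same restriction left 5 of 147 expanded members bound (3.40%), against 5.62% of the other genes. The Wilson intervals of these receptor shares, 4.27 to 10.9 for all members and 1.46 to 7.71 on V, hold the shares of the other genes.

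Receptors known for fat and nutrient metabolism had 4 bound members of 12 (33.3%, 13.8 to 60.9): nhr-49, nhr-64, nhr-66 and nhr-86. The share over all protein-coding genes was 9.26%, below the lower limit of that interval. The list was drawn up with earlier results of these data known, so this comparison cannot show an excess. More than 1 annotated 5' end was present for 10 of the 12 (83.3%), against 26.3% of all protein-coding genes, and the part of this in the share was not tested. The gene nhr-10, which acts in propionate breakdown, had a distal summit 1493 bp upstream with a score of 286. No summit lay in the windows of nhr-13, nhr-14, nhr-62, nhr-68, nhr-76, nhr-80 and nhr-114. Of the 4 HNF4-like receptors, nhr-49 and nhr-64 were bound and nhr-14 and nhr-69 were not. Of 10 metabolic genes that receptors of this group regulate, among them the desaturase genes fat-5, fat-6 and fat-7, 0 were bound (Wilson upper limit 27.8%), which allows the 9.26% of all genes.

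Receptor genes without an nhr- name had 0 of 5 bound (Wilson upper limit 43.4%), but daf-12, the receptor of the dauer decision, had an intronic summit 1673 bp from a 5' end with a score of 336. Genes of receptor cofactors and ligand enzymes had 4 of 11 bound (36.4%, 15.2 to 64.6). Over all protein-coding genes, 1849 of 19973 were bound (9.26%). The cofactor list was also drawn up with earlier results of these data known, so its share is a description and cannot show an excess. The gene sin-3, which encodes a corepressor scaffold, had a score of 877 and ranks 75 and 102 in replicates 1 and 2. The gene din-1, which encodes a corepressor of DAF-12, had a score of 836 and ranks 70 and 142. The gene cbp-1, which encodes a p300/CBP-type coactivator, had a score of 598 and ranks 220 and 379. The sterol methyltransferase gene strm-1 had a score of 258 and ranks 2124 and 1738. The scores of sin-3 and din-1 exceeded that of nhr-1, the highest of the members' promoter peaks, and cbp-1 came between nhr-1 and nhr-255, the next member. Distal summits alone were found at mdt-15 (score 301), gei-8 (578) and hda-1 (254), which encode a Mediator subunit that works with NHR-49, an NCoR-like corepressor and a histone deacetylase. The summit of hda-1 lay 1010 bp upstream, just past the 1000 bp limit of the promoter window, so the count of 4 depends on that limit.

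Sequences under the receptor peaks resembled those under all peaks in base composition. Mean GC content within 100 bp was 45.6% for the 37 summits of members and 45.6% for all 2946 summits, against 33.6% in the 200 bp upstream of all protein-coding genes. The repeat GAGAGAGA, on either strand, was present at 8 of the 37 (21.6%, 11.4 to 37.2), 16.3% of all summits and 2.74% of promoters. The shorter GAGAGA, which GAGAGAGA contains and which was added after the windows had been seen, was present at 23 of 37 (62.2%, 46.1 to 75.9), 51.5% of all summits and 16.3% of promoters. It was present at 13 of the 18 promoter summits (72.2%, 49.1 to 87.5) and 11 of the 20 distal summits (55%, 34.2 to 74.2), and both intervals hold the share of all summits. The CArG box, the motif of SRF-type factors, was present at 1 of the 37, a distal summit of nhr-70, and at 1.46% of all summits and 0.881% of promoters. The E-boxes CAGCTG and CACCTG were each present at 1, the promoter summit of nhr-64, against 9.40% and 6.59% of all summits. The GATA-type word TGATAA was present at 3 (8.11%), against 10.6% of all summits and 22.8% of promoters. The core receptor word AGGTCA was present at 1, the intronic summit of nhr-17, against 5.53% of all summits. A match is a description of these letters and does not mark a binding site.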

How the data were processed

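ChIP-seq of GFP-tagged UNC-120 was deposited as region lists in narrowPeak format for 2 replicates, for the replicates pooled and as an IDR list, in ce10 and ce11. Only the ce11 lists were used. The score of each region (column 7) is the value of the authors' peak caller in the deposited lists, and it was used to rank and describe regions within a list. Aligner, peak caller and settings: not given in the sources used here. Read counts were absent from the lists used, depth is unknown, and intervals cover the counting of genes only. A control experiment that the labels name as possible was not used here.

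Summits were assigned to protein-coding transcripts of Ensembl release 115 with Python 3.11.15, pandas 2.3.3 and scipy 1.17.1, and assignment was tested on simulated data. Shares carry Wilson 95% intervals, and no list was tested. Mitochondrial regions were left out. The members and lists were chosen with earlier results of these data known. Named genes are all conserved members, all bound members, the 6 members without a promoter summit that had the highest distal scores, members next to the limits and bound genes of the context lists; nhr-10, nhr-70, nhr-132, daf-12, mdt-15, gei-8 and hda-1 were named after their values were seen. Of 12 cofactor genes listed, 11 were matched by symbol. The uniqueness count, GAGAGA and the removal of summits near small RNA genes were added after seeing the data. Alternatives were other windows, the nearest 5' end, thinned or stronger peaks, and either replicate alone.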

Additional observations from a re-analysis of the deposited data

How the results depend on the processing

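Of 54 values under alternatives, 44 stayed within 1.5 times the count or inside the interval given in the report. The others are these. When the window ran from 3000 bp upstream through the whole gene, 28 members were bound, 18 of them expanded outside V, while the share of all genes rose to 15.8%. With the strongest 1473 peaks, 10 members were bound, 1 of them expanded on V, and 8 members had a distal summit, while 4.86% of all genes and 2.67% of other genes of V were bound and 6.67% of all genes had a distal summit. With the HNF4-like receptors added, 4 of 15 conserved members were bound. Without summits near small RNA genes, an alternative chosen after seeing the data, 1 conserved member was bound, while 8.71% of all genes were bound. Within 50 bp of the summit, GAGAGAGA was present at 5.41% of member summits, GAGAGA at 27.0% and the CArG box at 0. A narrower window holds fewer bases in which a word can fall. The shares of all summits at that width are not given here. Leaving out 1 replicate gave 15 to 16 bound members in all, 2 in the conserved group, 5 to 6 expanded on V, 8 expanded elsewhere and 16 to 18 with a distal summit. No paired analysis was possible because both libraries belong to the same group. The planned comparison of P box residues was not run, since no protein sequences were used here. The lists hold no read counts, so whether a gene without a peak was unbound or below detection cannot be told apart.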
